A study of Mus musculus with 12 samples.

Results

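The p53 target genes are genes that the transcription factor p53 is known to switch on, together with the gene of p53 itself. The list held 34 genes. A gene was measured where the array platform's annotation gave a probe set that gene's symbol and no other, and where several qualified, the one with the highest average signal was to be used. By this rule 29 of the 34 were measured, each by 1 probe set, out of 22180 genes named in the same way. Trp53 (the gene of p53), Bax, Gdf15, Fdxr and Ddb2 were not analysed here. The probe set annotated to Ddb2 also carries the symbol Acp2.

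The cells were MLE12, a mouse distal lung epithelial line that carries the SV40 large T antigen. All 4 groups received lentivirus with an shRNA in the pLKO.1 vector for 12 hours and were then subcultured for 65 hours. There were 3 arrays per group, which the labels call biological replicates. The groups were cells given shRNA against the RNA named NANCI, cells given the scrambled shRNA run with it, cells given shRNA against the RNA named LL34, and cells given the scrambled shRNA run with that one. Whether the cultures of a group were infected separately is not stated, so the p-values speak only of the spread among the arrays, which may be technical. In bulk RNA, fewer cells of a type and less RNA per cell cannot be told apart.

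p53 is a transcription factor that accumulates after DNA damage and other stresses and binds response elements in its target genes. Its targets halt the cell cycle, promote cell death, repair DNA and adjust metabolism, and they include Mdm2, whose protein marks p53 for degradation and so closes a negative feedback loop. p53 is regulated largely at the level of its protein, by stability and modification, which RNA arrays do not measure. SV40 large T antigen, present in every group, binds p53 and is known to inactivate it.

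Each array held log2 signals of 41345 probe sets. The median signal of an array was between 6.84 and 6.88 in the NANCI set, and between 6.54 and 6.61 in the LL34 set, each of 6 arrays. The lowest correlation between 2 arrays of a group was 0.986, in the LL34 scrambled group. Sfta3-ps, for which Nanci is a listed synonym, fell by 2.91 on the log2 scale with the NANCI shRNA (limma adjusted p = 1.72e-07) and by 0.67 with the LL34 shRNA (limma adjusted p = 0.00284). Nkx2-1, the lung epithelial transcription factor beside it, fell by 1.00 (limma adjusted p = 4.95e-06) and by 0.27 (limma adjusted p = 0.0327). The RNA targeted by the LL34 shRNA was not analysed here. Of 10 lung epithelial markers, 2 rose and 4 fell with each shRNA, where 10.3% of all probe sets were called higher and 9.6% lower with the NANCI shRNA, and 9.7% and 6.66% with the LL34 shRNA. Their mean level ran from 8.8 to 8.92 over the NANCI shRNA arrays and from 9.22 to 9.3 over the scrambled ones. In the LL34 set it ran from 8.98 to 9.06 over the shRNA arrays and from 9.13 to 9.32 over the scrambled ones. Brighter probe sets were called more often than these shares, as given below. The part of these markers in the results below was not tested. Of 16 fibroblast, endothelial and leukocyte markers, 1 rose and 2 fell with the NANCI shRNA, and 1 fell with the LL34 shRNA.

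Most of the measured p53 target genes were higher in cells given the NANCI shRNA. Of the 29, 24 rose, 2 fell and 3 did not pass the test (limma on all 12 arrays, Benjamini-Hochberg adjusted p under 0.05 over 41345 probe sets). Among all probe sets, 10.3% were called higher and 9.6% were called lower in the same comparison. Brighter probe sets were called more often. Of the 20673 at or above the median level, tested alone, 4389 were called higher and 4024 lower, and again 24 members rose and 2 fell. The members' median change was 0.66 on the log2 scale, shRNA minus scrambled, against a median of 0.01 over all probe sets. The 3 NANCI shRNA arrays lay above all 3 scrambled arrays for 24 members and below them for 2, where 17.5% and 15.5% of all probe sets separated in those directions. Ranked by their change among the 22180 named genes, 8 members were among the highest 100, which are 0.451% of the genes, and 18 were among the highest 1000, which are 4.51%. Folds of the members that rose ran from 1.25 for Ckap2 and Rps27l to 3.29 for Zmat3.

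**Figure D1:**
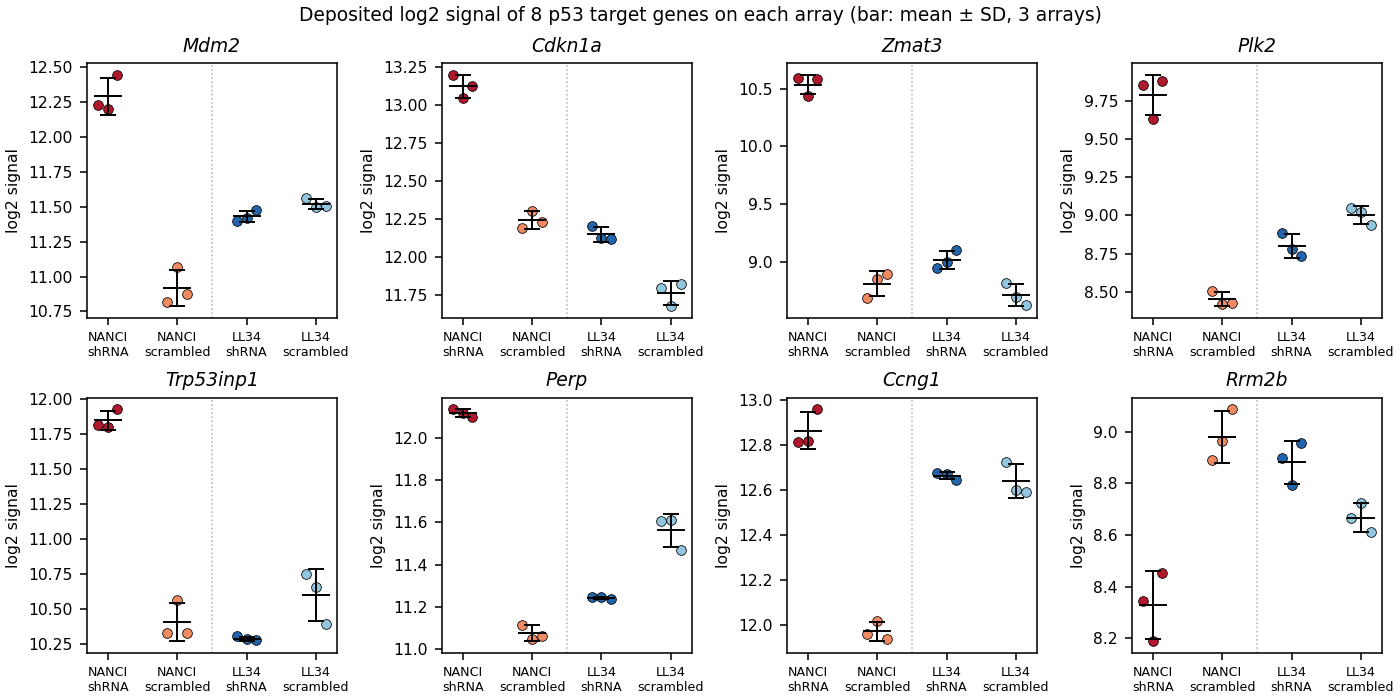
Deposited log2 signal (vertical axis) of Mdm2, Cdkn1a, Zmat3, Plk2, Trp53inp1, Perp, Ccng1 and Rrm2b in the 4 groups, with points for single arrays and bars for the mean ± SD of 3 arrays. The NANCI shRNA arrays lie above their scrambled arrays for 7 of the 8 genes and below them for Rrm2b. The dotted line parts the 2 sets, between which levels are not compared here.

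Mdm2, the ubiquitin ligase of the feedback loop, had log2 signals of 12.23, 12.20 and 12.45 on the NANCI shRNA arrays, against 10.81, 11.06 and 10.87 on the scrambled arrays. The groups did not overlap. Its change was 1.37 (SE 0.081, limma adjusted p = 1.056e-06), a 2.59-fold higher signal.

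All 9 measured genes of cell cycle control and growth, some of arrest and some of the spindle, rose with the NANCI shRNA. Their median change was 0.89, where 10.3% of all probe sets were called higher. Cdkn1a encodes p21, the inhibitor of cyclin-dependent kinases through which p53 halts division. It gave 13.20, 13.04 and 13.12 on the NANCI shRNA arrays and 12.19, 12.31 and 12.23 on the scrambled arrays, so that its lowest shRNA array was above its highest scrambled array. It rose by 0.88 (SE 0.0634, limma adjusted p = 3.93e-06). Zmat3, an RNA-binding zinc finger protein, had the largest change of the 29. Its log2 signals were 10.59, 10.44 and 10.58 with the NANCI shRNA, against 8.69, 8.86 and 8.90 with the scrambled shRNA. It rose by 1.72 (SE 0.0777, limma adjusted p = 2.64e-07) and ranked 15 of 22180 genes from the top.

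Plk2, a polo-like kinase of the stress response, had 9.85, 9.63 and 9.87 in NANCI shRNA cells, against 8.51, 8.42 and 8.43 in scrambled cells. It rose by 1.33, and its relative Plk3 rose by 0.57. Btg2, an antiproliferative cofactor of mRNA deadenylation, had 10.48, 10.33 and 10.24 in NANCI shRNA cells, against 9.34, 9.08 and 9.28 in scrambled cells, a rise of 1.12. Both genes separated the groups without overlap. Ccng1, which encodes cyclin G1, a partner of Mdm2 in the control of p53, gave 12.81, 12.82 and 12.96 with the NANCI shRNA and 11.96, 12.02 and 11.94 with the scrambled shRNA, a rise of 0.89. Gtse1, a microtubule-associated protein that holds p53 down in G2, rose by 1.11. Its log2 signals were 10.15, 9.77 and 9.90 in NANCI shRNA cells and 8.79, 8.89 and 8.80 in scrambled cells. The spindle-associated Psrc1 and Ckap2 rose by 0.68 and 0.33, and Ckap2 had the smallest change of the 9 genes.

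Near the start sites of 5 members lay matches to the p53 response element, and these are shown. All 5 rose with the NANCI shRNA, but so did 24 of the 29 measured members. Ckap2 and Rps27l, which carry a match, had the smallest rises of these, and Mdm2, Plk2 and Btg2, which do not, had larger ones. The consensus has 20 bases, as 2 half-sites without a spacer, reads the same on both strands, and was searched with the C and G of each half-site's core kept and up to 2 mismatches elsewhere. Windows reached from 250 bases before to 50 after each start site in RefSeq (GRCm38.p6), and 22 of the 29 members had one. With at most 1 mismatch, 4 of those 22 members had a match, against 22 of 27025 genes (0.0814%). With at most 2, the counts were 5 members and 106 genes (0.392%). The capitals mark the match.
Cdkn1a: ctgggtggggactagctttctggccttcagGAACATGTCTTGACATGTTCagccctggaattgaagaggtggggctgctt
Ccng1: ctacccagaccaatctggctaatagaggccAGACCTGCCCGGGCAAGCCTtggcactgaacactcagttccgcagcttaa
Gtse1: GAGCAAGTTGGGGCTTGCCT
Rps27l: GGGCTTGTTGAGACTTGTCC
Ckap2: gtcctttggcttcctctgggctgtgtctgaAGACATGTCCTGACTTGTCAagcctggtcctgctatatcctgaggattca
The Cdkn1a stretch is chr17:29090898-29090977 on the plus strand, and its match begins 51 bases before the upstream of 2 listed start sites and 2841 bases before the other. The Ccng1 stretch is chr11:40755432-40755511 on the minus strand, with the match beginning 195 bases before the start site. The Gtse1 match is chr15:85859945-85859964 and the Rps27l match chr9:66946296-66946315, both on the plus strand. They begin 1 and 117 bases before the downstream of 2 listed start sites. Both lie past the upstream start site, inside the gene. The Ckap2 stretch is chr8:22185973-22186052 on the minus strand and has 2 mismatches, where the other 4 have 1. The members were chosen as known p53 targets, so the matches are no independent evidence. A match in sequence does not show binding, and for members without one, such as Mdm2, Btg2 and Plk2, nothing follows, since response elements also lie outside such windows.

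Of the 13 measured genes of apoptosis, death receptors and linked signalling, 11 rose with the NANCI shRNA, and the median change was 0.49. Of all probe sets, 10.3% were called higher in this comparison. Trp53inp1, a stress-induced nuclear protein that favours p53-dependent death, had 11.82, 11.80 and 11.92 on the NANCI shRNA arrays, against 10.33, 10.56 and 10.33 on the scrambled arrays. It rose by 1.44 (SE 0.0949, limma adjusted p = 2.08e-06) and ranked 32 of 22180. Phlda3, a repressor of Akt, had 11.66, 11.30 and 11.47 in NANCI shRNA cells, against 10.28, 10.53 and 10.36 in scrambled cells, a rise of 1.09. Perp, a membrane protein of desmosomes and of p53-dependent death, had 12.13, 12.12 and 12.10 in NANCI shRNA cells, against 11.12, 11.05 and 11.06 in scrambled cells. The arrays of each Perp group lay within 0.1 of one another while the groups differed by 1.04.

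Fas, the death receptor, had 8.77, 8.77 and 8.83 with the NANCI shRNA and 7.68, 7.86 and 7.84 with the scrambled shRNA, a rise of 1.00. Tnfrsf10b, the mouse receptor of the death ligand TRAIL, rose by 0.49. The BH3-only genes Bbc3, which encodes Puma, and Pmaip1, which encodes Noxa, rose by 0.66 and 0.49. Bbc3 was among the dimmer members, with 8.05, 7.80 and 7.94 in NANCI shRNA cells and 7.14, 7.53 and 7.12 in scrambled cells. Ei24, a protein of the endoplasmic reticulum, rose by 0.71. Dram1, a lysosomal protein of autophagy, rose by 0.42. Apaf1, the scaffold of the apoptosome, rose by 0.40. Rps27l, a ribosomal protein close in sequence to Rps27, rose by 0.32, and whether its probe set tells the 2 genes apart was not tested. Aen, an apoptosis-enhancing nuclease, and Eda2r, a receptor of the TNF family, did not pass the test. Their changes were 0.11 (95% interval -0.0354 to 0.26) and 0.14 (95% interval -0.134 to 0.412).

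The 4 genes of DNA repair and nucleotide supply did not move together. Rrm2b, a p53-induced subunit of ribonucleotide reductase, fell by 0.65 with the NANCI shRNA (SE 0.0804, limma adjusted p = 0.000142). Its log2 signals were 8.34, 8.19 and 8.45 in NANCI shRNA cells, against 8.89, 8.96 and 9.09 in scrambled cells, without overlap. Polk, a translesion DNA polymerase, had 9.09, 9.25 and 9.50 in NANCI shRNA cells, against 9.74, 9.77 and 9.77 in scrambled cells. It fell by 0.48 (SE 0.145, limma adjusted p = 0.0385), and this call was lost when any of 8 of the 12 arrays was left out (limma adjusted p from 0.0549 to 0.15). Those were NANCI shRNA replicates 1 and 2 and all 3 arrays of the NANCI scrambled and LL34 shRNA groups, and 1 member then fell with the NANCI shRNA. Ercc5, an endonuclease of nucleotide excision repair, rose by 0.57. Xpc, which recognizes damage in the same pathway, was not called, at -0.06 (95% interval -0.271 to 0.159).

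Both measured genes of metabolism and stress signalling rose with the NANCI shRNA, against 10.3% of all probe sets. Ddit4l, an inhibitor of mTOR signalling, had 8.18, 7.87 and 8.13 in NANCI shRNA cells, against 6.84, 7.08 and 6.94 in scrambled cells, a rise of 1.11. Its scrambled signals were dim, near the array medians of 6.84 to 6.88. Sesn1, a sestrin that restrains mTORC1, had 9.73, 9.88 and 9.79 in NANCI shRNA cells, against 9.30, 9.16 and 9.30 in scrambled cells, a rise of 0.55.

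**Figure D2:**
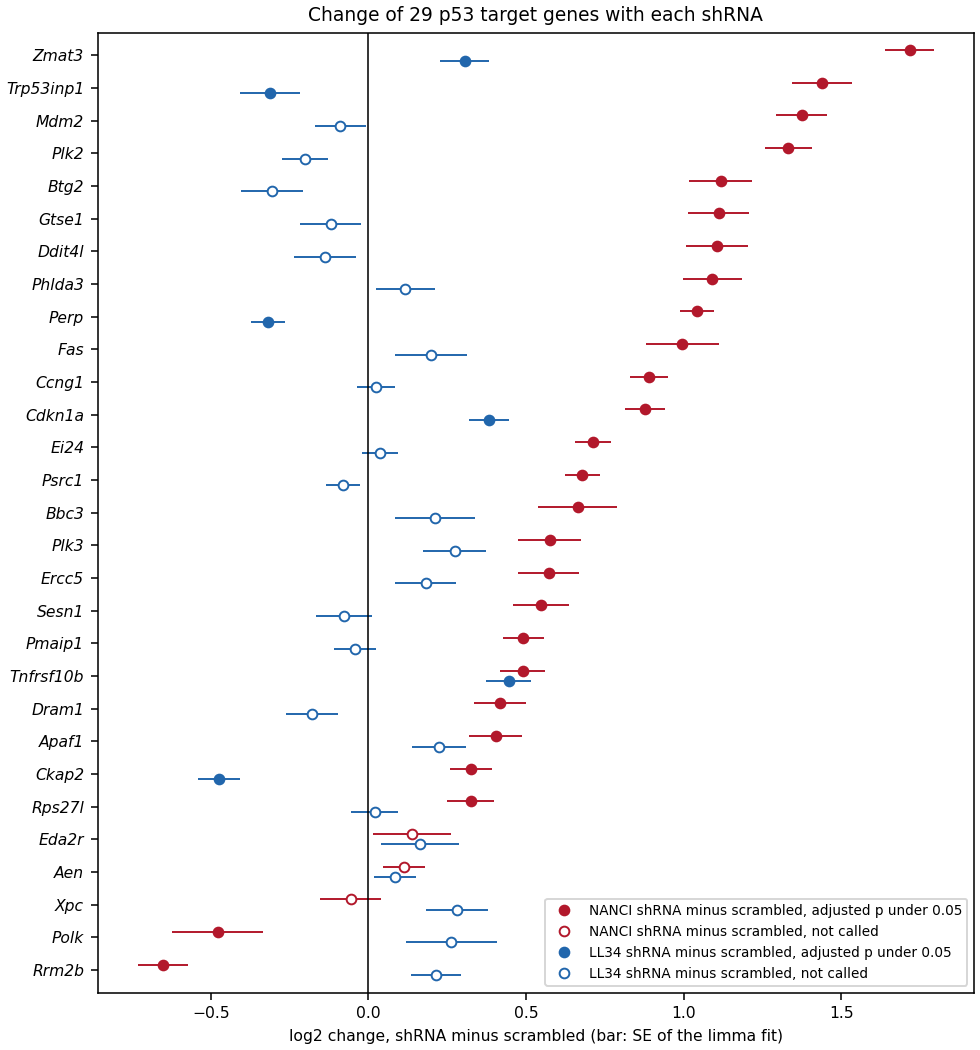
Log2 change (horizontal axis, shRNA minus scrambled) of each of the 29 measured p53 target genes with the NANCI shRNA (red) and the LL34 shRNA (blue), with bars for the SE of the limma fit and open points for changes not called. Changes ran from -0.65 to 1.72 with the NANCI shRNA and from -0.48 to 0.45 with the LL34 shRNA.

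With the LL34 shRNA few of the same genes were called, and in both directions. Of the 29, 3 rose (Cdkn1a, Zmat3 and Tnfrsf10b), 3 fell (Perp, Ckap2 and Trp53inp1) and 23 did not pass the test, with a median change of 0.04 against 0.0038 over all probe sets. Among all probe sets 9.7% were called higher and 6.66% were called lower, so 3 of 29 in each direction was near or little above this background. Those shares are 4011 higher and 2755 lower calls, and after quantile normalization over all 12 arrays they were 3307 and 3463. Brighter probe sets were called more often. Of the 20673 at or above the median level, which include all 29 members, 4324 were called higher and 2885 lower. When these were tested alone, 4 members rose and 4 fell, so neither direction stood above that background. The 3 LL34 shRNA arrays lay above the 3 scrambled arrays for 7 members and below them for 7, where 18.8% and 12.3% of all probe sets separated in those directions.

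Cdkn1a had 12.21, 12.13 and 12.12 on the LL34 shRNA arrays, against 11.80, 11.68 and 11.82 on the scrambled arrays, a rise of 0.38 (SE 0.0634, limma adjusted p = 0.00174). Tnfrsf10b had 11.65, 11.54 and 11.60 in LL34 shRNA cells, against 11.31, 11.09 and 11.04 in scrambled cells, a rise of 0.45 (SE 0.0721, limma adjusted p = 0.00153). Neither gene's groups overlapped. Zmat3 had 8.95, 9.01 and 9.10 in LL34 shRNA cells, against 8.82, 8.69 and 8.63 in scrambled cells, a rise of 0.31 (limma adjusted p = 0.0203). Its call was lost without LL34 shRNA replicate 2 or 3 or LL34 scrambled replicate 2 or 3 (limma adjusted p from 0.0517 to 0.0866). It was also lost after quantile normalization over all 12 arrays (0.23, limma adjusted p = 0.0548) and after centring each array on its median (0.27, limma adjusted p = 0.0542).

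Perp fell by 0.32 with the LL34 shRNA (SE 0.0536, limma adjusted p = 0.00193). Its log2 signals were 11.25, 11.24 and 11.24 in LL34 shRNA cells and 11.61, 11.61 and 11.47 in scrambled cells. Ckap2 had 11.01, 10.94 and 11.04 in LL34 shRNA cells, against 11.54, 11.53 and 11.35 in scrambled cells, and fell by 0.48 (SE 0.0669, limma adjusted p = 0.000638). Both were separated without overlap. Trp53inp1 had 10.30, 10.28 and 10.28 in LL34 shRNA cells, against 10.75, 10.66 and 10.39 in scrambled cells, and fell by 0.31 (limma adjusted p = 0.0455). Leaving out any array other than NANCI scrambled replicate 2 and LL34 scrambled replicate 3 ended that call (limma adjusted p from 0.0551 to 0.137), and so did fitting the LL34 set alone (limma adjusted p = 0.103). With all 6 scrambled arrays as 1 control group, the calls of Cdkn1a (0.17, limma adjusted p = 0.346), Perp (-0.06, limma adjusted p = 0.814), Ckap2 (-0.29, limma adjusted p = 0.139) and Trp53inp1 (-0.21, limma adjusted p = 0.206) with the LL34 shRNA were lost. Mdm2 had 11.40, 11.42 and 11.48 in LL34 shRNA cells, against 11.56, 11.50 and 11.51 in scrambled cells. Its change of -0.09 was not called (95% interval -0.268 to 0.0889). For Ccng1 the change was 0.02 (95% interval -0.109 to 0.158). Ddit4l read 6.62 on all 3 LL34 shRNA arrays and on 1 scrambled array, so its SD of 0 with that shRNA is no measure of spread. That value lay near the array medians of the LL34 set, 6.54 to 6.61. Its LL34 change, and the difference between the shRNAs built on it, are therefore uncertain.

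The changes with the 2 shRNAs were compared directly, as the NANCI change minus the LL34 change, and the sets share no arrays. For 18 members the NANCI change was higher, for 2 it was lower and for 9 the difference was not called. Of all probe sets, 8.63% were called higher and 10.2% lower in this test, and the members' median difference was 0.63. The largest were 1.75 for Trp53inp1 (SE 0.134, limma adjusted p = 7.5e-06), 1.53 for Plk2 (SE 0.105, limma adjusted p = 3.94e-06) and 1.46 for Mdm2 (SE 0.115, limma adjusted p = 8.66e-06). Perp, Ckap2 and Trp53inp1 rose with the NANCI shRNA and fell with the LL34 shRNA, with differences of 1.36, 0.80 and 1.75. Of the 3 members that rose with both, Cdkn1a and Zmat3 had larger changes with the NANCI shRNA, by 0.49 and 1.41, and for Tnfrsf10b the difference of 0.04 was not called (95% interval -0.181 to 0.268). The lower differences belonged to Rrm2b, at -0.87, and Polk, at -0.74. The Polk difference was lost without NANCI shRNA replicate 1 or 2, NANCI scrambled replicate 3 or LL34 shRNA replicate 1 or 2 (limma adjusted p from 0.055 to 0.066), which left 1 member lower. By role, 8 of the 9 genes of cell cycle control and growth were called higher in this test. So were 7 of the 13 of apoptosis, death receptors and linked signalling, both of metabolism and stress signalling, and Mdm2. Of the 4 of repair, 2 were called lower and 2 were not called, among them Ercc5 with a difference of 0.39 (limma adjusted p = 0.0732).

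Levels were set across the 4 groups after quantile normalization over all 12 arrays, as a description without a test, because the deposited values of the 2 sets looked normalized apart. NANCI shRNA cells had the highest mean for 21 of the 29 members (29.1% of all probe sets), and NANCI scrambled cells had the lowest for 15 (22% of all probe sets). For 17 members all 3 NANCI shRNA arrays lay above the 9 other arrays, against 8.39% of all probe sets. For 11 members all 3 NANCI scrambled arrays lay below the 9 others, against 4.18%. LL34 scrambled cells lay above NANCI scrambled cells without overlap for 14 members, below for 6 and overlapped for 9, where 22.4% of all probe sets lay above and 25.4% below. The members' median difference, LL34 scrambled minus NANCI scrambled, was 0.23, against -0.01 over all probe sets. LL34 shRNA cells lay above NANCI shRNA cells for 3 members and below for 21, where 27.9% of all probe sets lay above and 35.3% below.

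**Figure D3:**
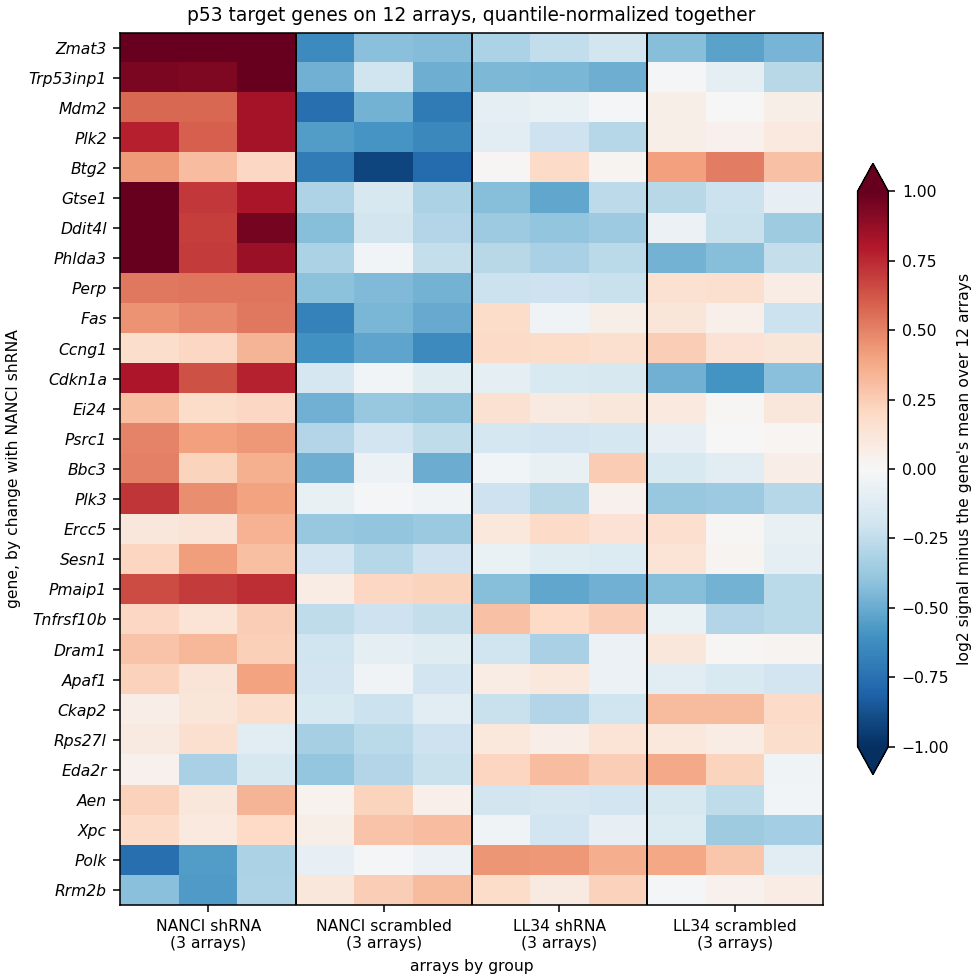
Log2 signal of the 29 p53 target genes (rows) on the 12 arrays (columns, by group) after joint quantile normalization, as colour, each minus the gene's mean over the arrays. The scale ends at -1 and 1 and larger values take the end colour. Red fills most rows of the NANCI shRNA columns, which have the highest mean for 21 members, and blue most rows of the NANCI scrambled columns, which have the lowest for 15.

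The order of the groups differed between members. Mdm2 averaged 12.2 ± 0.15 in NANCI shRNA cells, 11.48 ± 0.0439 in LL34 shRNA cells, 10.9 ± 0.15 in NANCI scrambled cells and 11.58 ± 0.0313 in LL34 scrambled cells (SD, n = 3 each, quantile-normalized log2). The NANCI groups thus lay on either side of both LL34 groups, and the scrambled groups differed by 0.68. For Btg2 the scrambled groups differed by 1.20, with 10.4 ± 0.108 in LL34 scrambled cells and 9.201 ± 0.111 in NANCI scrambled cells, and the LL34 scrambled mean was above the NANCI shRNA mean of 10.31 ± 0.107. Those 2 Btg2 means differ by less than their spread. Ccng1 and Plk2 were also higher in LL34 scrambled than in NANCI scrambled cells, by 0.76 and 0.67. For Zmat3, NANCI shRNA cells averaged 10.5 ± 0.0733, against 9.022 ± 0.0658 in LL34 shRNA cells, and the scrambled groups, which overlapped, differed by 0.02. Cdkn1a ran the other way, with a difference of -0.39, LL34 scrambled minus NANCI scrambled. With all 6 scrambled arrays as 1 control group, 18 members rose with the NANCI shRNA, where 3412 of all 41345 probe sets were called higher. The calls of Btg2 (0.51, limma adjusted p = 0.318), Ccng1 (0.45, limma adjusted p = 0.166) and Ckap2 (0.07, limma adjusted p = 0.768) were then lost. So were those of Ei24 (0.40, limma adjusted p = 0.068), Ercc5 (0.37, limma adjusted p = 0.0705) and Rps27l (0.12, limma adjusted p = 0.546).

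Called changes among other p53 targets were mostly rises with the NANCI shRNA and mostly falls with the LL34 shRNA. Of 31 measured other p53 targets, 17 rose and 2 fell with the NANCI shRNA (median 0.26), and 4 rose and 10 fell with the LL34 shRNA (median -0.0988). Among all probe sets, 10.3% were called higher and 9.6% lower with the NANCI shRNA, and 9.7% and 6.66% with the LL34 shRNA, so the 2 that fell with the NANCI shRNA and the 4 that rose with the LL34 shRNA were near the background. The thiamine transporter gene Slc19a2 rose with both, by 1.69 and 0.48. Its log2 signals were 10.94, 10.79 and 10.93 in NANCI shRNA cells, against 9.05, 9.28 and 9.27 in scrambled cells. Ddit4, an mTOR inhibitor related to Ddit4l, rose by 1.23 with the NANCI shRNA and fell by 0.39 with the LL34 shRNA. Zfp365, a gene of genome stability, rose by 0.89 with the NANCI shRNA. Trp53i11 and Ephx1 rose by 0.26 and 0.52 with the NANCI shRNA and fell by 0.56 and 0.32 with the LL34 shRNA. The sestrin Sesn2 rose with both, by 0.735 with the NANCI shRNA and 0.94 with the LL34 shRNA, and the difference was not called. The apoptosis inhibitor Triap1 rose by 0.90 with the LL34 shRNA and was not called with the NANCI shRNA. Thbs1, the matrix protein thrombospondin, had 8.56, 8.74 and 8.66 in LL34 shRNA cells, against 10.96, 10.79 and 10.82 in scrambled cells, and fell by 2.20. It also fell by 0.56 with the NANCI shRNA. The tetraspanin Cd82 fell with both, by 0.73 with the NANCI shRNA and 0.34 with the LL34 shRNA.

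Of 23 regulators of p53, 6 rose and 5 fell with the NANCI shRNA, and 2 rose and 4 fell with the LL34 shRNA, set against the same shares of all probe sets (10.3% and 9.6%, then 9.7% and 6.66%). The 2 that rose with the LL34 shRNA were at this background, and the shares among brighter probe sets, given above for each shRNA, were larger. With the NANCI shRNA, 4389 of those 20673 were called higher and 4024 lower. Set against them, the 6 and 5 of 23 regulators were near or little above background. Rchy1, a ubiquitin ligase of p53, rose by 1.02 with the NANCI shRNA. Ppp1r13l, an inhibitor of p53-driven death, rose by 0.78, and Usp7, which removes ubiquitin from p53 and Mdm2, rose by 0.56. The acetyltransferase Ep300 and the kinase Chek1, which both modify p53, fell by 1.00 and 0.55. Hipk2, a kinase of p53, fell with both shRNAs, by 1.17 with that against NANCI and by 1.06 with that against LL34. Cdkn2a rose by 0.40 with the NANCI shRNA and fell by 0.24 with the LL34 shRNA. Kat5 rose by 0.17 with the LL34 shRNA and was not called with the NANCI shRNA. Mdm4, the relative of Mdm2 that inhibits p53, rose by 0.41 with the LL34 shRNA. Trp53bp2, which directs p53 to death genes, fell with both, by 0.35 with the NANCI shRNA and 0.54 with the LL34 shRNA.

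Among 21 measured cell cycle genes that p53 is known to lower through p21 and the DREAM repressor complex, 9 rose and 3 fell with the NANCI shRNA (median 0.19). With the LL34 shRNA, 1 rose and 11 fell (median -0.265). Against 10.3% higher and 9.6% lower calls over all probe sets with the NANCI shRNA, and 9.7% and 6.66% with the LL34 shRNA, the 3 that fell with the NANCI shRNA were near the background and the 1 that rose with the LL34 shRNA was below it. The mitotic kinases Aurka and Aurkb rose by 0.65 and 0.82 with the NANCI shRNA, and the spindle checkpoint kinase Bub1b rose by 0.77. The transcription factors Mybl2 and Foxm1 fell by 0.43 and 0.27, and the checkpoint protein gene Mad2l1 fell by 0.30. With the LL34 shRNA, the mitotic phosphatase Cdc25c, the kinase Cdk1 and the ribonucleotide reductase subunit Rrm2 fell by 0.78, 0.41 and 0.59, and the transcription factor E2f1 rose by 0.36. Some of these genes moved oppositely with the other shRNA. Cdc25c and Cdk1 rose by 0.55 and 0.51 with the NANCI shRNA, and Aurkb and Bub1b fell by 0.29 and 0.42 with the LL34 shRNA. Mad2l1 fell with both, by 0.35 with the LL34 shRNA. Aurka, Mybl2 and Foxm1 were not called with the LL34 shRNA, nor E2f1 with the NANCI shRNA. Rrm2 is the counterpart of Rrm2b in dividing cells, and its change with the NANCI shRNA, 0.27, was not called (limma adjusted p = 0.0591).

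**Figure D4:**
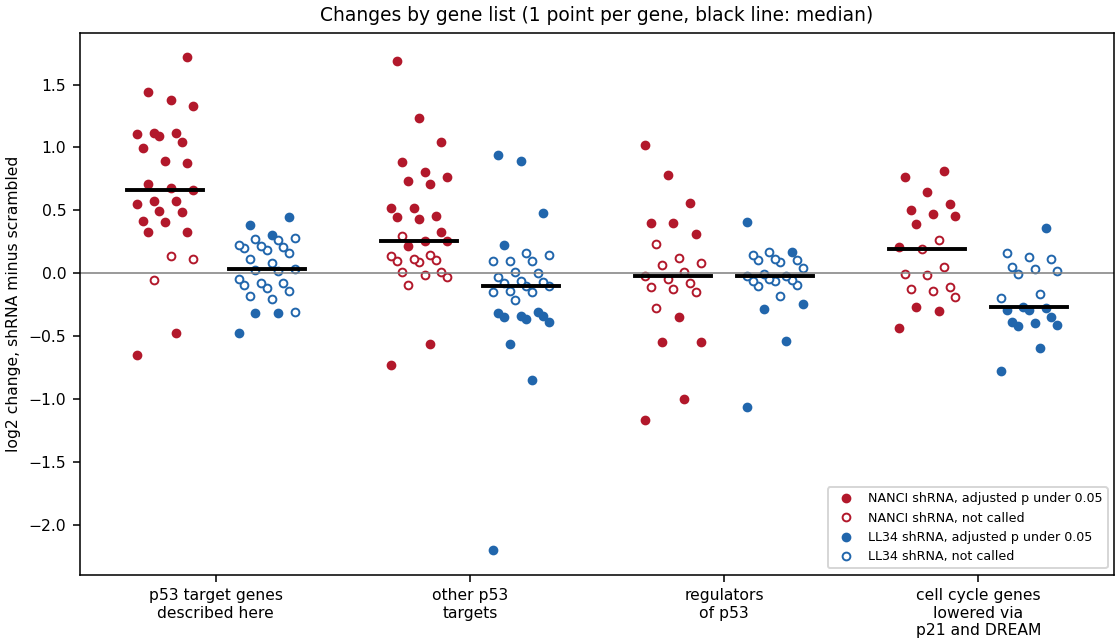
Log2 changes (vertical axis, shRNA minus scrambled) by gene list, 1 point per gene, with the NANCI shRNA in red, the LL34 shRNA in blue, open points for changes not called and a black line at each median. The median of the p53 target genes is 0.66 with the NANCI shRNA and 0.04 with the LL34 shRNA, and that of the cell cycle genes is 0.19 and -0.265.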

How the data were processed

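RNA of 12 MLE12 cultures in 4 groups of 3 was measured on Affymetrix arrays. The authors deposited 1 log2 signal per probe set and array. Per the submitters' processing notes the tools were oligo, RMA and limma. Their versions and order, and any batch or scan date, were not given in the sources used here. Of 41345 probe sets, 23521 had 1 symbol, 1814 had several and 16010 had none in the platform annotation.

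Group means of all 12 arrays were fitted to these log2 values with limma 3.58.1 in R 4.3.3, and the package data.table, version 1.17.8, handled the files. There were 4 group means, 8 residual degrees of freedom and 2.84 prior ones. P-values were adjusted by Benjamini-Hochberg over all probe sets, with a threshold of 0.05. The number of arrays limits the precision. All members are named, and from other p53 targets, regulators of p53 and DREAM cell cycle genes up to 3 called genes per direction and shRNA with the smallest p, some with their value for the other shRNA. Sfta3-ps and Nkx2-1 check the labels. Lung epithelial, fibroblast, endothelial and leukocyte markers are given by counts and levels. The members and lists were chosen with earlier results of these data known. The fit was tested on simulated data. Alternatives changed scaling, arrays fitted, replicate block, dim probe sets, probe sets per gene, moderation and control group, or left out 1 array. Promoter windows came from a RefSeq table of GRCm38.p6.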

Additional observations from a re-analysis of the deposited data

Results flagged for a closer look

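The change with the NANCI shRNA differed from the change with the LL34 shRNA for 20 of the 29 p53 target genes, by the limma test of the difference itself. Of all probe sets, 8.63% were called higher and 10.2% lower in that test. On the log2 scale, NANCI change minus LL34 change, the difference was 1.75 for Trp53inp1, 1.53 for Plk2, 1.46 for Mdm2, 1.42 for Btg2, 1.41 for Zmat3, 1.36 for Perp, 1.24 for Ddit4l and 1.23 for Gtse1. It was 0.97 for Phlda3, 0.87 for Ccng1, 0.80 for Ckap2, 0.80 for Fas, 0.76 for Psrc1 and 0.68 for Ei24. It was 0.63 for Sesn1, 0.60 for Dram1, 0.53 for Pmaip1 and 0.49 for Cdkn1a. The difference was below 0 for Polk, at -0.74, and for Rrm2b, at -0.87. For some of these genes the scrambled groups lay further apart than the shRNA groups. After quantile normalization, LL34 minus NANCI was 0.76 between scrambled and -0.06 between shRNA groups for Ccng1. It was 0.50 and -0.11 for Ei24, and 1.20 and -0.24 for Btg2. Zmat3 went the other way, at 0.02 and -1.47. The part of the scrambled groups in these differences was not tested.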

How the results depend on the processing

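Over 20 alternatives, 18 of them for the difference, no called change of a member turned its direction. Of the 26 members called with the NANCI shRNA 19 stayed called in all of them, and of the 6 called with the LL34 shRNA 1 did (Tnfrsf10b). Of the 20 called differences 19 stayed called in all 18. The 2 alternatives not run for the difference were each set fitted alone and all 6 scrambled arrays as 1 control group. That pooled control ended 10 calls with the single shRNAs, so these shares are not comparable. With 1 array left out, 24 members rose in every case and 1 to 2 fell with the NANCI shRNA, 2 to 4 rose and 2 to 4 fell with the LL34 shRNA, and the difference was higher for 18 to 19 and lower for 1 to 3. After quantile normalization over all 12 arrays, 6 members fell with the LL34 shRNA, and with all 6 scrambled arrays as 1 control group 0 did. The pooled control mixes sets that looked normalized apart, and the cause was not tested.

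Arrays with the same replicate number did not deviate together (correlations from -0.125 to 0.0451, against -0.15 to 0.134 for differing numbers). With 3 arrays per group this cannot show whether the cultures were handled in pairs, which the labels do not state. With the replicate block 23 members rose and 2 fell with the NANCI shRNA, 2 rose and 2 fell with the LL34 shRNA, and the difference was higher for 18 and lower for 2. Calls lost with the block were Rps27l with the NANCI shRNA and Zmat3 and Trp53inp1 with the LL34 shRNA. Signal over background was not analysed here. Values tied across arrays of the LL34 set may make errors too small.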
